A study of Mus musculus with 2 samples.

Results

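The genes described here are the cyclins, the cyclin-dependent kinases (CDKs), their inhibitors and phosphatases, and the E2F transcription factors with their DP partners and pocket proteins, together with Wee1, Btg1 and Btg2. They were chosen by the gene name that the array design gives each probe, which took 67 of 19732 genes and 128 of 41174 gene probes. Their levels were compared between granulocytes and monocytes that had been sorted from marrow, in wild-type C57BL/6 mice, all male. Total RNA of each cell type was amplified and hybridised to 1 one-colour array, so each group held 1 array and there were 2 arrays in all. Neither the gates of the sort nor the number of animals pooled is stated in the labels. With 1 array per group the spread between samples is unknown, no test was possible and no p-value is given.

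Cyclins switch on the CDKs, the kinases that drive the cell cycle. D-type cyclins with Cdk4 and Cdk6 phosphorylate the retinoblastoma family of pocket proteins in G1 phase, which frees E2F factors to transcribe genes for DNA replication. E- and A-type cyclins then act with Cdk2 in S phase, and B-type cyclins with Cdk1 in mitosis, while the INK4 and CIP/KIP proteins block these kinases. In bone marrow the granulocyte lineage divides up to the myelocyte stage and then leaves the cycle as the cells mature, and monocytes arise from dividing precursors.

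A level is given as relative signal, which is the spot's processed signal divided by that array's 75th percentile of it. A difference is granulocyte minus monocyte on the log2 scale, and calls were counted at 4-fold or more. Higher and lower without a fold give only the sign of a difference. Where 1 array gave no signal well above background, the gene has a lower bound, written "at least". Across the 15612 genes above background on at least 1 array the median difference was 0.41, so a gene near that value differed like the middle of all genes. Values without scaling leave out the division by the percentile, and normexp is a model-based background correction that draws dim signals together. The 75th percentile of the signal was 339.4 for granulocytes and 620.9 for monocytes, with 0 saturated spots. The median SD between repeated spots of a probe was 0.070 for granulocytes and 0.068 for monocytes, in log2 units.

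The labels were set against marker genes. All 10 granulocyte markers above background were above 0, from S100a9 (1.06) to Mmp9 (9.65). All 9 monocyte markers were below 0, from Csf1r (-1.56) to Fn1 (-8.51). The summed relative signal of the granulocyte markers was 4119.3 in granulocytes and 1042.0 in monocytes. That of the monocyte markers was 15.6 in granulocytes and 579.1 in monocytes. Granulocyte markers were thus also bright on the monocyte array, though unevenly, from 0.142 for Cxcr2 to 414.5 for S100a9. The source of this signal was not tested. Of 8 progenitor markers above background, 5 were at least 4-fold lower in granulocytes, beside 10.4% of all genes. The summed relative signal of these 8 markers was 45.3 in granulocytes and 381.6 in monocytes. They ranged from -3.67 for Elane to 1.76 for Gata2, and the stem cell factor receptor gene Kit was at 1.35. The T-cell list ran from -3.98 (Lck) to 1.76 (Cd3d) and the NK-cell list from -4.53 (Klrd1) to -0.26 (Gzma). The erythroid list ran from -0.51 (Tfrc) to 1.92 (Hba-a1) and the megakaryocyte list from 1.33 (Ppbp) to 2.52 (Gp9). B-cell markers ran from -0.28 (Cd79b) to a bound of 1.83 (Ebf1), and dendritic cell markers from a bound of -3.96 (Siglech) to 1.20 (Xcr1). These lists went in different directions, and their part in the results below was not tested. In bulk RNA, fewer cells of a type and less RNA per cell cannot be told apart.

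Because many members are themselves E2F or cell cycle targets, their promoters were searched for the motifs of that control. RefSeq promoters in the build GRCm38.p6, running from 250 bases before to 50 after the start, were held for 53 of the 67 genes. The E2F motifs searched on both strands were TTTCGCGC, TTTGGCGC, TTTCCCGC and TTTGCCGC, and the promoters of 9 member genes held at least 1 of them (10 of 62 member promoters, 16.1%, and 2.26% of all 32851 promoters). The 5 promoters below are shown 5′ to 3′ because their genes stand on both sides of the comparison: Cdk1, Rbl1 and E2f7 had differences below 0, and E2f2 and Tfdp1 above 0. Capitals mark the E2F motif or its reverse complement.
Cdk1, chr10:69352863-69353162, minus strand: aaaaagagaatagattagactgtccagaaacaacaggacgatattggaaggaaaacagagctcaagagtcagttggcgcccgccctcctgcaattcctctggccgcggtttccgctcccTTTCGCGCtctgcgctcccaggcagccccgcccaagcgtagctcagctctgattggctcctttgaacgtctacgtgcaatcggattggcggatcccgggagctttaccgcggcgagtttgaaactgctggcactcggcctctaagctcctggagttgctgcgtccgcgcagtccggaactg
Rbl1, chr2:157204485-157204784, minus strand: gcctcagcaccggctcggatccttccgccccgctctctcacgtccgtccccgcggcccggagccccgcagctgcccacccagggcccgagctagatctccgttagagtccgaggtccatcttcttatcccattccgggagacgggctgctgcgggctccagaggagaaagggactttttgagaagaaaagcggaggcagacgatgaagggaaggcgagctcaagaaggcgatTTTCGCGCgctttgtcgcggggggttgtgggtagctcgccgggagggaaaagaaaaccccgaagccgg
E2f7, chr10:110745189-110745488, plus strand: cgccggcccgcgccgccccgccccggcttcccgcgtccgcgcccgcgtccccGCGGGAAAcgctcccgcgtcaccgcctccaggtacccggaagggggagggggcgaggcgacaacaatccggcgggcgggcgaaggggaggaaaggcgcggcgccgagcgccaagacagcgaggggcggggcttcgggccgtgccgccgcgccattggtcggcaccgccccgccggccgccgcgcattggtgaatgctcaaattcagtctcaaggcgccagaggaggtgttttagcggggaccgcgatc
E2f2, chr4:136172024-136172323, plus strand: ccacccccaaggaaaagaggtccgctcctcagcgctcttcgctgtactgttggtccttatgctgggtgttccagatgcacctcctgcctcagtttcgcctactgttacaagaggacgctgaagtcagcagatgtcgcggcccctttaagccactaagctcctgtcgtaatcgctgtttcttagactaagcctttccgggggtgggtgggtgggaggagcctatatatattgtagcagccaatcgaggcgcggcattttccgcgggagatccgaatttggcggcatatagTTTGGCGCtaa
Tfdp1, chr8:13338501-13338800, plus strand: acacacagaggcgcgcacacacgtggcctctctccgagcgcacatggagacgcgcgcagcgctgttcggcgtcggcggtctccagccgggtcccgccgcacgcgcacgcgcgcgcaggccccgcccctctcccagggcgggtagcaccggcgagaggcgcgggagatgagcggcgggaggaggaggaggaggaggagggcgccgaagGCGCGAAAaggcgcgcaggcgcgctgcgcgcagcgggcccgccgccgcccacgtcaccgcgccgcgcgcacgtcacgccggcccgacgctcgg

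The motif TTTGAA, the letters of the cell cycle homology region (CHR) of late cell cycle genes, stood in 12 of 62 member promoters (19.4%) and in 17.9% of all promoters. The CCAAT letters stood in 34 member promoters (54.8%), against 37.4% of all promoters. The promoter of Ccnb2, a mitotic cyclin, is shown because it held both, and capitals mark the TTTGAA matches.
Ccnb2, chr9:70421505-70421804, minus strand: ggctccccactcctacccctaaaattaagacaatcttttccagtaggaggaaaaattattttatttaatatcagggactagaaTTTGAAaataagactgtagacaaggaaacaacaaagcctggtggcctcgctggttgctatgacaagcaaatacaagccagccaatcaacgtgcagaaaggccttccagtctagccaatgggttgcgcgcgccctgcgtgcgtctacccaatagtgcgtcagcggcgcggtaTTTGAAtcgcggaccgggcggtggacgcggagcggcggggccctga

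Of the 8 members with an E2F motif and a level above background, 5 were above 0 (Cdk2, Cdc25a, E2f2, E2f3 and Tfdp1) and 3 below (Cdc2a, the file's name for Cdk1, Rbl1 and E2f7), with a median of 0.13. Without scaling, Cdk2, Cdc25a and E2f3 were also negative. The 43 members with a promoter but without the motif had a median of 0.26, so members with these letters were not all on one side. For the CCAAT letters the median was 0.46 in the 31 members with them and -0.53 in the 20 without, and for TTTGAA it was -0.23 in the 12 with it and 0.23 in the 39 without. A match describes letters only and is no binding site.

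Of the 67 genes, 63 were measured on both arrays, 2 on 1 array (Wee1 and Cdkn2b) and 2 on neither (Ccnb3, a B-type cyclin, and Cdkn2a, an INK4 inhibitor). By probe number, 27 of the 67 had 1 probe, among them Cdk4, Cdk5r1, Ccna1, Cdkn1a, Cdkn2b and Wee1. No second probe could be set beside their values. Among the 65 above background, 8 (12.3%) were at least 4-fold lower in granulocytes, beside 10.4% of all genes, and 4 (6.15%) at least 4-fold higher, beside 8.54% of all genes. At this size the members' shares lay near those of all genes. At 2-fold, 22 members (33.8%) were lower, against 20.9% of all genes, and 18 (27.7%) were higher, against 29.1% of all genes. In all, 29 members (44.6%) were below 0, against 38% of all genes, and 36 (55.4%) above 0, against 59.6% of all genes. The members' median difference was 0.062, against 0.41 for all genes. Of the 65 members 25 lay within 2-fold (38.5%), against 50.1% of all genes.

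**Figure D1:**
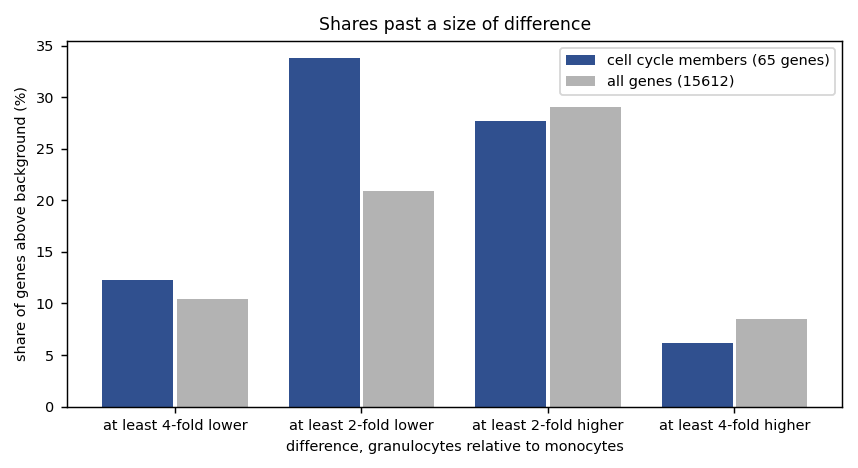
Bars give the share (%) of genes above background that were at least 2-fold or 4-fold lower or higher in granulocytes relative to monocytes, for the 65 cell cycle members (blue) and for all 15612 genes (grey). At least 2-fold lower were 33.8% of members and 20.9% of all genes.

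**Figure D2:**
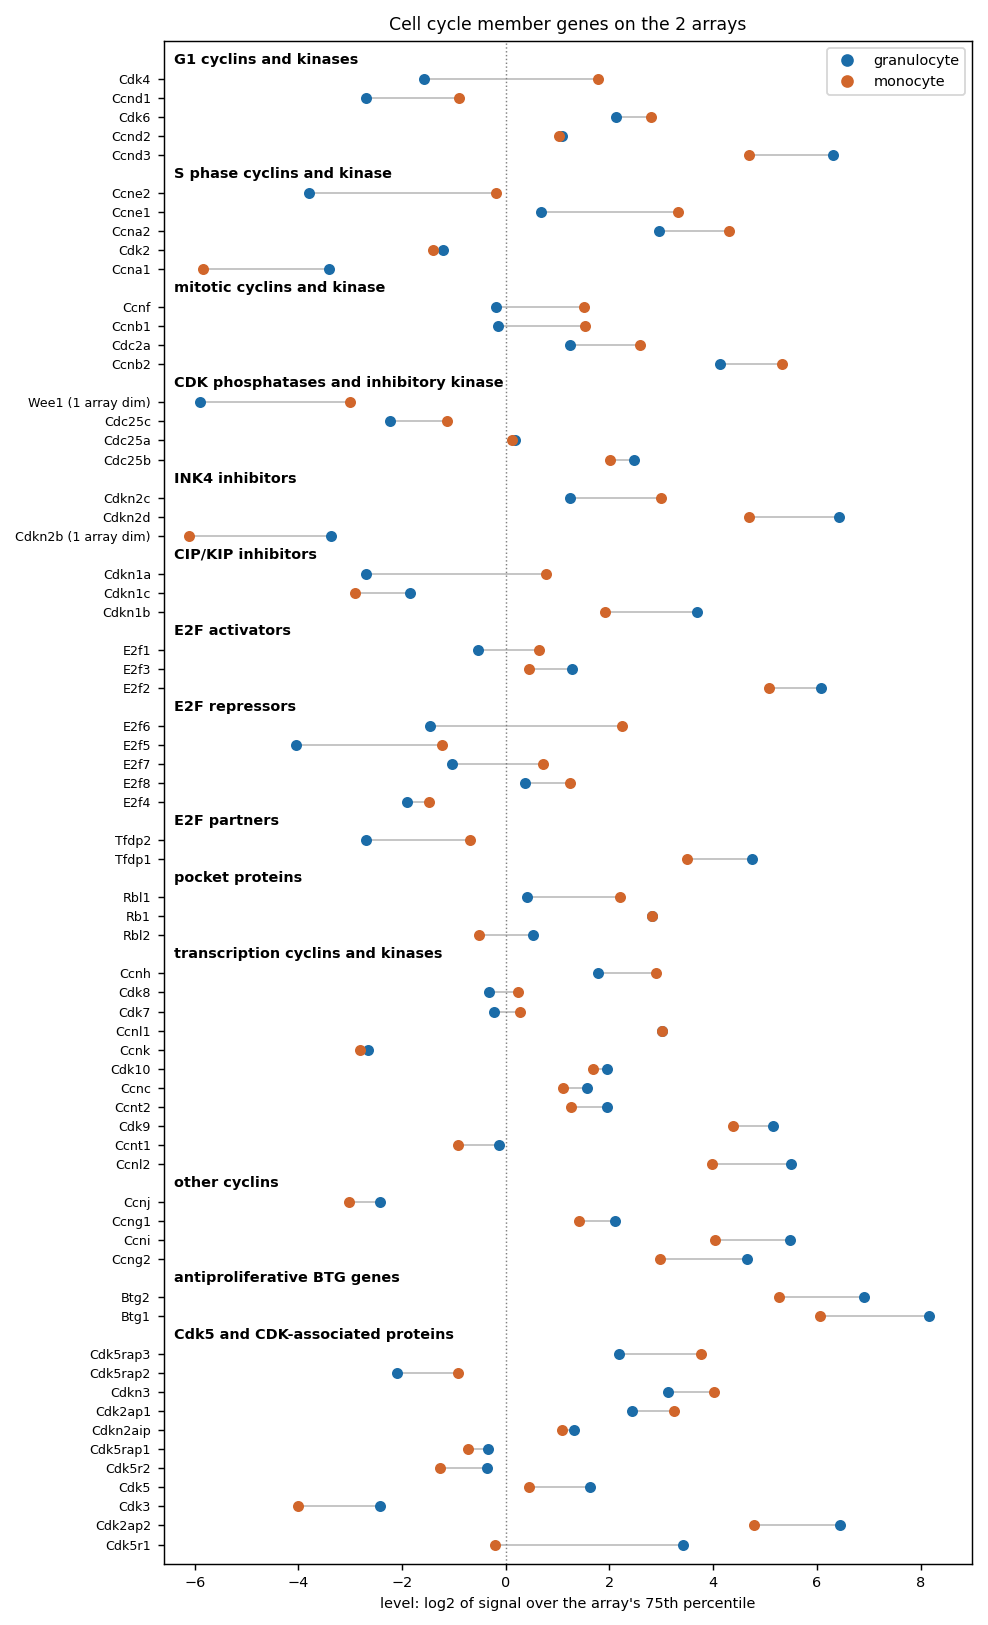
Each row is a member gene above background, grouped by role. Points give its level on each array as log2 of the signal over that array's 75th percentile, blue for granulocytes and orange for monocytes, and a grey line joins them. Granulocyte points lie left of monocyte points for every mitotic cyclin gene, Cdc2a and every E2F repressor gene, and right of them for Btg1 and Btg2. Levels of different genes come from different probes and are not to be ranked.

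Among the G1 genes, both Cdk4 and Cdk6 were lower in granulocytes, Cdk4 by the wider margin. Cdk4, a partner of D-type cyclins, had a relative signal of 0.337 in granulocytes and 3.44 in monocytes, 10.2-fold lower in granulocytes (-3.35). Cdk4 has 1 probe, with 1 spot on each array. Cdk6, its close relative, had 4.38 in granulocytes and 7.0 in monocytes (-0.68), and its 3 probes ranged from -1.18 to -0.35. The difference of Cdk6 exceeded that of Cdk4 by 2.68 on the log2 scale, a value that no constant scaling of an array can move. After normexp background correction this gap was 2.13.

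The D-type cyclins, which tie growth factor signals to the cycle, went different ways. Ccnd1 had a median of 0.158 over 10 spots in granulocytes (0.128 to 0.185) and 0.540 over 10 spots in monocytes (0.491 to 0.568), a difference of -1.79. Ccnd2 had 2.11 in granulocytes and 2.03 in monocytes (0.052), with probes between -0.07 and 0.05. Ccnd3 had 79.2 in granulocytes and 25.9 in monocytes (1.61, and 0.74 without scaling). The spots of Ccnd1 did not overlap between the arrays, Ccnd2 differed by less than the SD between probes of a gene (0.23 over all genes), but gave -0.82 without scaling and -0.46 with spike-in scaling, and Ccnd3 stood 3.40 above Ccnd1 in its difference.

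The E-type cyclins, which start S phase with Cdk2, were among the members furthest below 0. Ccne2 had 0.0721 in granulocytes and 0.882 in monocytes, 12.2-fold lower in granulocytes (-3.61). Its other probe gave -4.07, and after normexp background correction its difference was -2.01. Ccne1 had 1.61 in granulocytes and 9.96 in monocytes, 6.18-fold lower in granulocytes (-2.63), and its other probe gave -1.47. Ccna2, the S phase and G2 cyclin, was also lower, with 7.80 in granulocytes and 19.8 in monocytes (-1.34). Their kinase Cdk2 differed little: 0.432 in granulocytes and 0.377 in monocytes (0.20, and 0.70 by its other probe), and -0.67 without scaling. Ccna1, a cyclin best known from the male germ line, was higher at a dim signal, 0.0947 in granulocytes and 0.0174 in monocytes (2.44), and it gave 1.16 after normexp background correction.

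All 4 mitotic members above background were lower in granulocytes, within a narrow range from -1.70 to -1.20, and none reached 4-fold as scaled. Without scaling all 4 did, with -2.55 for Ccnb1, -2.08 for Ccnb2, -2.23 for Cdc2a and -2.57 for Ccnf. Ccnb1 had 0.907 in granulocytes and 2.90 in monocytes (-1.67), with 3 probes from -1.67 to -1.35. Ccnb2 had 17.5 in granulocytes and 40.2 in monocytes (-1.20). Both encode B-type cyclins, the partners of Cdk1. Cdc2a, the gene of Cdk1 itself, had 2.37 in granulocytes and 6.05 in monocytes (-1.36). Its second probe was dim, at 0.0239 in granulocytes, where it was not well above background, and 0.0252 in monocytes, and gave no difference. Ccnf, an F-box protein with a cyclin fold, had 0.877 in granulocytes and 2.85 in monocytes (-1.70).

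Of the regulators of CDK phosphorylation, Wee1, the kinase that holds Cdk1 inactive, was not well above background in granulocytes. Its relative signal was 0.0169 in granulocytes and 0.125 in monocytes, at least 4.49-fold lower in granulocytes, and after normexp background correction its difference was -0.27. The CDC25 phosphatases remove that inhibitory phosphate. Cdc25c had 0.211 in granulocytes and 0.453 in monocytes (-1.10). Cdc25a had 1.13 in granulocytes and 1.08 in monocytes (0.062), and Cdc25b had 5.53 in granulocytes and 4.01 in monocytes (0.46). Cdc25a and Cdc25b were negative without scaling (-0.81 and -0.41).

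The INK4 inhibitors, which bind Cdk4 and Cdk6, were split. Cdkn2d had 85.9 in granulocytes and 25.8 in monocytes (1.74, and 0.86 without scaling). Cdkn2c had 2.37 in granulocytes and 7.94 in monocytes (-1.75, and -2.62 without scaling), and its probes gave -1.80 and -1.75. Cdkn2b had 0.0963 in granulocytes and 0.0144 in monocytes, where it was not well above background, so it was at least 6.32-fold higher in granulocytes, with 1.13 after normexp background correction. Cdkn2d and Cdkn2c thus moved apart by 3.48 on the log2 scale, while Cdkn2a was not well above background on either array.

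The CIP/KIP inhibitors, which act on CDKs more broadly, were split by a wider margin. Cdkn1a, a target of p53, had a median of 0.151 over 9 spots in granulocytes (0.146 to 0.175) and 1.71 over 10 spots in monocytes (1.63 to 1.79), 11.0-fold lower in granulocytes (-3.46, and -2.54 after normexp background correction). Cdkn1b had 12.9 in granulocytes and 3.76 in monocytes (1.78, and 0.91 without scaling), and its 3 probes ranged from 1.68 to 2.16. Of these 3 probes, 1 has 10 spots, with a median of 1.43 in granulocytes (1.24 to 1.55) and 0.445 in monocytes (0.424 to 0.449). The spots of a probe share 1 array per group, so these ranges give the spread between spots and not between samples. The differences of Cdkn1b and Cdkn1a lay 5.24 apart (4.21 after normexp background correction). Cdkn1c had 0.277 in granulocytes and 0.133 in monocytes (1.06, and 0.19 without scaling).

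**Figure D3:**
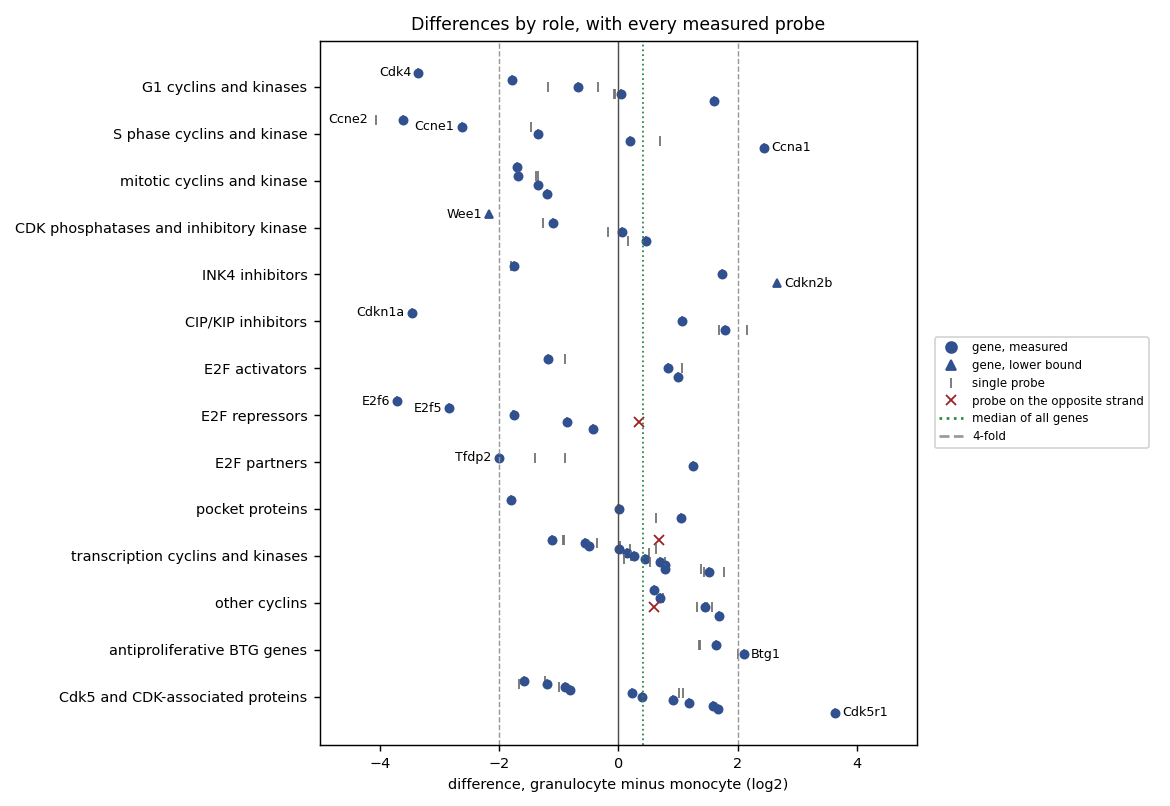
Each row is a role. Blue points give the difference of a gene, granulocyte minus monocyte on the log2 scale, triangles give lower bounds, grey ticks give single probes of the gene and red crosses give probes on the strand opposite to the gene. Dashed lines mark 4-fold, the dotted line marks the median of all genes (0.41), and the 12 genes at 4-fold or more are named, from E2f6 at -3.70 to Cdk5r1 at 3.63.

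Of the E2F activators, E2f2 and E2f3 were above 0 and E2f1 below 0, and E2f3 was below 0 without scaling. The activator E2f2 had 67.8 in granulocytes and 33.8 in monocytes (1.01), with 0.13 without scaling and 0.49 with spike-in scaling. E2f3 had 2.43 in granulocytes and 1.37 in monocytes (0.83), with -0.04 without scaling. E2f1, the third activator, was lower: its 10-spot probe had a median of 0.384 in granulocytes (0.358 to 0.409) and 0.713 in monocytes (0.697 to 0.762). The brighter E2f1 probe gave a difference of -1.18.

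All 5 E2F repressors were below 0, under every alternative setting. E2f6, which represses without pocket proteins, had 0.364 in granulocytes and 4.74 in monocytes, 13.02-fold lower in granulocytes (-3.70), the lowest gene value among the members. E2f5, which works with pocket proteins, had 0.0602 in granulocytes and 0.429 in monocytes, 7.12-fold lower in granulocytes (-2.83, and -1.22 after normexp background correction). Their dimmer probes were not well above background in granulocytes and gave at least -2.26 for E2f6 and -2.69 for E2f5. The atypical factors E2f7 and E2f8, which bind DNA without a DP partner, had smaller differences. E2f7 had 0.487 in granulocytes and 1.65 in monocytes (-1.76), and E2f8 had 1.30 in granulocytes and 2.36 in monocytes (-0.86). E2f4 had 0.266 in granulocytes and 0.358 in monocytes (-0.43).

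The DP partners, with which E2F factors bind DNA, also parted. Tfdp1 had 26.8 in granulocytes and 11.2 in monocytes (1.25), with 1.26 by its other probe and 0.38 without scaling. Tfdp2 had 0.155 in granulocytes and 0.621 in monocytes, 4.01-fold lower in granulocytes (-2.004). Its other probes gave -1.39 and -0.89, so Tfdp2 reached 4-fold by 1 of 3 probes, and that probe gave -1.13 after normexp background correction.

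Among the pocket proteins, Rb1 did not differ beyond the spread between probes: its 10 spots had a median of 7.03 in granulocytes (6.87 to 7.26) and 7.02 in monocytes (6.66 to 7.30), and its difference was 0.011 (-0.86 without scaling). Rbl1, a member that is itself an E2F target, was lower, with 1.32 in granulocytes and 4.59 in monocytes (-1.80). Rbl2, the pocket protein linked to resting cells, was higher, with 1.44 in granulocytes and 0.70 in monocytes (1.05). Its other probe gave 0.62, and its difference was 0.17 without scaling. The differences of Rbl2 and Rbl1 lay 2.84 apart.

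Of the 11 cyclins and kinases of transcription, 9 lay within 2-fold, beside 50.1% of all genes, and none reached 4-fold. Ccnl2, a cyclin linked to splicing, was highest with 45.4 in granulocytes and 15.7 in monocytes (1.53, and 0.65 without scaling). Ccnh, the cyclin of the CDK-activating kinase, was lowest with 3.45 in granulocytes and 7.43 in monocytes (-1.11), and its kinase Cdk7 gave -0.49. Of the 8 members above 0, all but Ccnl2 turned negative without scaling, among them Cdk9 (0.77 and -0.10) and Ccnt1 (0.78 and -0.09).

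The BTG genes and the 4 remaining cyclins were above 0, though Ccng1 and Ccnj only with scaling. Btg1, an antiproliferative gene, had 286.8 in granulocytes and 67.0 in monocytes, 4.28-fold higher in granulocytes (2.10), with 2.003 by its other probe and 1.23 without scaling. Btg2 had 120.6 in granulocytes and 38.8 in monocytes (1.64, and 0.76 without scaling), with 3 probes from 1.35 to 1.64. Ccng2, an unconventional cyclin linked to cell cycle arrest, had 25.2 in granulocytes and 7.85 in monocytes (1.68). Ccni had 44.8 in granulocytes and 16.4 in monocytes (1.45). Without scaling Ccng2 gave 0.81 and Ccni 0.58. Ccng1, a p53 target, gave 0.71 and -0.17 without scaling, and Ccnj gave 0.60 and -0.27 without scaling.

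In the remaining members, Cdk5r1, the activator of Cdk5, had the largest difference above 0 of all members. It had 10.7 in granulocytes and 0.860 in monocytes, 12.4-fold higher in granulocytes (3.63), from 1 probe with 1 spot on each array. Cdk5, a kinase known for its work in neurons and outside the cycle, had 3.09 in granulocytes and 1.36 in monocytes (1.18). The second activator Cdk5r2 had 0.782 in granulocytes and 0.417 in monocytes (0.91). Without scaling Cdk5 gave 0.31 and Cdk5r2 0.04. Cdk2ap2 gave 1.67 (0.80 without scaling) and its relative Cdk2ap1 -0.81 (-1.68 without scaling). Cdk5rap3 had 4.52 in granulocytes and 13.5 in monocytes (-1.58), and Cdk5rap2, a centrosome protein, had 0.232 in granulocytes and 0.531 in monocytes (-1.19). Cdkn3, a phosphatase that acts on CDKs, gave -0.89, and Cdk3 gave 1.59 (0.72 without scaling). Cdk5rap1 (0.40) and Cdkn2aip (0.23) turned negative without scaling.

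In the build mm8 of the files, the Cdk4 probe lies at chr10:126467860-126467919 and the Cdkn1a probe at chr17:28828096-28828155. The E2f6 probe lies at chr12:16852137-16852196 and the Cdk5r1 probe at chr11:80296519-80296578. Their place within exons was not analysed here.

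Other genes of the pathway, in lists chosen with earlier results of these data known, set the members in context. Of 20 E2F target genes listed, 18 were at least 4-fold lower in granulocytes and 0 higher, with a median of -2.78. Of all genes, 10.4% were at least 4-fold lower and 8.54% at least 4-fold higher. Pcna, the sliding clamp of DNA replication, had 10.55 in granulocytes and 70.3 in monocytes (-2.74). All 16 mitosis genes listed were below 0, against 38% of all genes, and 2 were at 4-fold. Their median of -1.40 was near that of the 4 mitotic members (-1.52). The summed relative signal of the E2F target list was 62.2 in granulocytes and 419.4 in monocytes. Of the 8 progenitor markers above background, 6 were below 0 like these lists, while Gata2 (1.76) and Kit (1.35) were above 0. Their summed relative signal, 45.3 in granulocytes and 381.6 in monocytes, was mostly that of Mpo (32.1 in granulocytes and 255.5 in monocytes) and Ctsg (9.25 in granulocytes and 97.8 in monocytes), and their part in the difference was not tested.

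Of 15 CDK adaptor and ubiquitin ligase genes, 4 were at least 4-fold lower and 1 at least 4-fold higher in granulocytes. Among all genes these shares were 10.4% and 8.54%. Skp2, which marks Cdkn1b protein for destruction, had 0.0483 in granulocytes and 0.498 in monocytes (-3.37). Pkmyt1, a relative of Wee1, gave -2.45, Cdc14b -2.18, the CDK adaptor gene Cks1b -2.02, and the phosphatase gene Cdc14a 2.44. Of 7 genes of the DREAM complex and its partners, none reached 4-fold and 5 were below 0, beside 38% of all genes. They ran from Foxm1 (-1.80) to Lin54 (1.06).

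Of 9 genes listed for p53, its targets and the Gadd45 family, 4 were at least 4-fold higher and 1 lower in granulocytes. Their median was 1.76. Among all genes, 8.54% were at least 4-fold higher and 10.4% at least 4-fold lower. Trp53inp1 had 66.5 in granulocytes and 4.11 in monocytes (4.01), and Sesn2 (3.25), Gadd45g (3.14) and Gadd45a (3.12) followed. Bax (-2.15) and Sesn1 (-0.65) were below 0. Cdkn1a, the CDK inhibitor among p53 targets, was below 0 like Bax and Sesn1. The 4 genes at least 4-fold higher lay on the other side. Of the BTG relatives, Tob1 was higher (3.07) and Btg3 was at -1.71. Among the mitogen genes, Myc had 0.259 in granulocytes and 2.40 in monocytes (-3.21), while Mycn (0.69) and Mycl (0.095) lay within 2-fold.

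**Figure D4:**
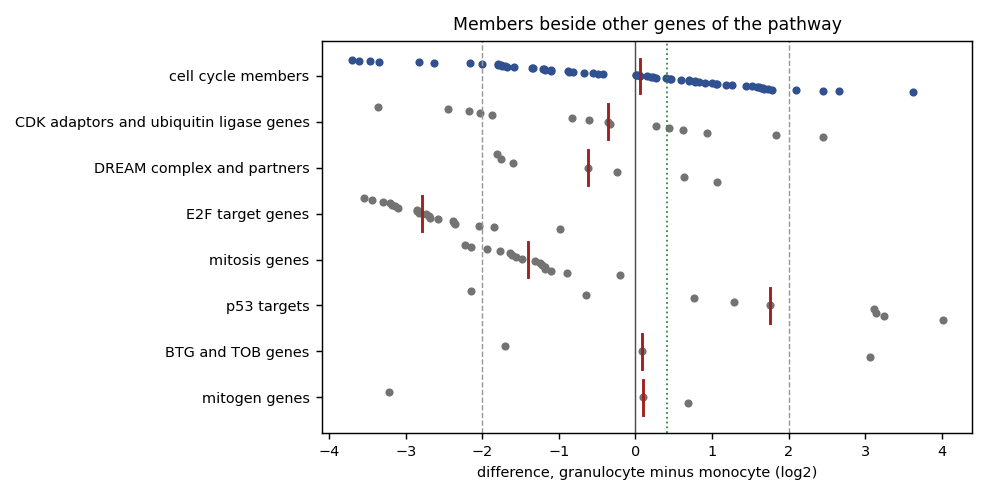
Points give single genes, members in blue and other genes of the pathway in grey, by their difference, granulocyte minus monocyte on the log2 scale. Red bars mark each list's median, the dotted line the median of all genes (0.41) and dashed lines 4-fold. The E2F target list lies around its median of -2.78 and the p53 list around 1.76.

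The 12 members at 4-fold kept their sign in all 118 values computed under 10 other settings. These values are not independent. Several settings move all genes by nearly the same constant, and others repeat the same number for genes with 1 probe. Members chosen at 4-fold could hardly change sign under such settings, so the kept sign is no separate support. Cdk4, Ccne1, Ccne2, Cdkn1a, E2f6 and Cdk5r1 also stayed at 4-fold or more in each of the 10 settings. The other 6 fell under 4-fold in at least 1 setting.

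**Figure D5:**
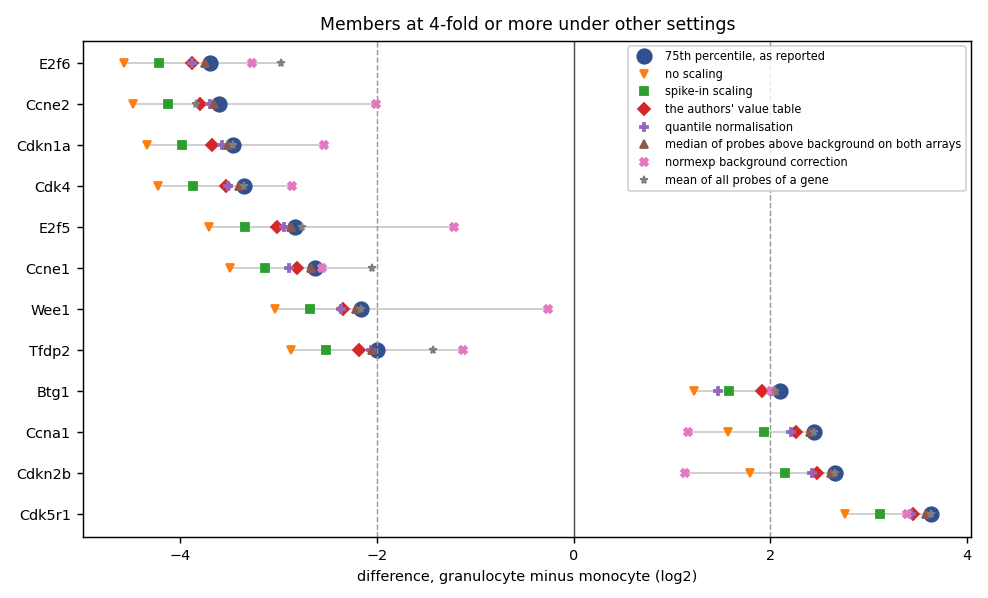
Each row is 1 of the 12 members at 4-fold or more. The large blue point is its difference as reported, granulocyte minus monocyte on the log2 scale, the other symbols give the difference under 7 other settings, and the grey line spans all settings run. Dashed lines mark 4-fold. Wee1 moves furthest, to -0.27 after normexp background correction.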

How the data were processed

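Granulocytes and monocytes were each measured on 1 array. Signals come from Feature Extraction 10.5.1.1 of Agilent, per the file headers. The deposited intensity of a spot is background-subtracted, detrended and not normalised between arrays. The authors' deposited value table is on a log2 scale and equals log2 of that intensity plus -0.24 (granulocytes) or -0.92 (monocytes), and how the authors set these constants is unknown here. Its column medians were 4.80 on both arrays. The flags for signal well above background and for outlier spots, of the unit other, are as deposited.

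Control and outlier spots (143 on the granulocyte array, 103 on the monocyte array) were left out. Log2 intensity minus the array's 75th percentile was averaged over the spots of a probe. Each gene took the probe detected on more arrays, and among equals the brightest one. Probes of all genes were named through RefSeq accessions, otherwise by symbol (33055 of 41089 probes). For a bound, the dim array's value was its lowest detected level (-5.16 granulocytes, -6.04 monocytes), or the measured one if that was higher. Alternatives were other scalings, normexp with limma 3.58.1 (offset 50), other filters, probe rules and sizes. The calculation was tested on simulated data. All members could be named, and the members, roles and lists were chosen with earlier results of these data known.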

Additional observations from a re-analysis of the deposited data

How the results depend on the processing

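With 1 array per group these settings move values and say nothing of the spread between animals, no left-out replicate could be tried, and precision is limited by how few arrays there are. No paired analysis was possible because each group holds 1 array. The count of members at least 4-fold higher in granulocytes was 4 as reported, 1 without scaling, 2 with spike-in scaling and 2 after normexp correction, and that of members at least 4-fold lower was 8 as reported, 20 without scaling, 15 with spike-in scaling and 5 after normexp correction. At 2-fold the counts were 18 higher and 22 lower, and at 8-fold 1 and 4, by construction. The members' median of 0.062 changed sign to -0.00047 with quantile normalisation, -0.81 without scaling, -0.45 with spike-in scaling and -0.12 in the authors' value table, because a constant moves every value alike, except under quantile normalisation, where the cause was not tested. Relative to the median of all genes (-0.42 without scaling, -0.07 with spike-in scaling, 0.18 with quantile normalisation, 0.22 in the authors' table) it was lower under each of these, by 0.18 to 0.39. Of the calls, 33.3% were higher in granulocytes as reported, 4.76% without scaling and 11.8% with spike-in scaling. Of the 53 members under 4-fold, 18 changed sign in at least 1 setting. The restriction to probes on the annotated strand was chosen after seeing the data and changed neither count. The counts were 3 higher and 9 lower with quantile normalisation and 3 and 8 in the authors' table. With the median of probes detected on both arrays as the scale, the filter on both arrays, no filter, the mean of probes and the annotated strand, they were 3 or 4 higher and 7 or 8 lower. The median was 0.073 after normexp correction and lay between 0.015 and 0.24 under those 5 settings.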

Other observations

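Of the 128 member probes, 1 could not be compared with its gene, because the strand of that gene was not held. It is the only probe of Ccnd1. Of the others, 123 run along the strand of their gene and 4 run along the opposite strand. These 4 carry a member's name, but lie on a cDNA read in the other direction. For Ccnh, the opposite-strand probe gave a relative signal of 0.164 in granulocytes and 0.102 in monocytes (0.69), while the 3 probes along the gene gave -1.11 to -0.92. For E2f8 it gave 0.130 in granulocytes and 0.103 in monocytes (0.35), beside -0.86 along the gene. The Cdk8 probe on the opposite strand was well above background in granulocytes only, with a bound of 1.33, whereas the 2 probes along the gene gave -0.56 and -0.36. For Ccni it gave 0.59, beside 1.33 to 1.58 along the gene. In all 4 genes the gene's value rests on a probe along its strand.

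The probes of 6 members had differences of opposite sign. For Ccnh and E2f8 the opposite-strand probe was the one that differed in sign. The other 4 are Ccnd2 (-0.07 to 0.05), Cdc25a (-0.18 to 0.06), Cdk7 (-0.49 to 0.02) and Rb1 (-0.00049 to 0.011). The probes of a member had a median SD of 0.20, over 37 members with several measured probes.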
